A study of Rattus norvegicus with 8 samples.

Results

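The genes described here make, pack and cut the peptides of the regulated secretory pathway: prohormone convertases, carboxypeptidase E, the peptide amidating enzyme and the granins. They were chosen by symbol, as all polyadenylation sites assigned to Pcsk1, Pcsk2, Pcsk1n, Cpe, Pam, Scg2, Scg3, Scg5, Chga or Chgb. Of these 10 genes, 8 had sites in the table, with 101 of its 73922 sites, among 12255 genes in all. Pcsk1 and Pcsk1n were not analysed here. The reads came from whole transcriptome termini site sequencing (WTTS-seq), a count of poly(A) transcript ends. The tissue was hypothalamus, from adult male rats of the Long-Evans strain. A control group of 4 rats ate standard rodent chow, and 4 rats in the diet-induced obesity group had free access to a high fat diet, both for 36 days. The 8 libraries are taken as 8 rats, and each group carries the numbers 1 to 4 in its labels, which do not say what a number stands for. No body weight was used here, so the obesity group is known only by its label and diet.

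Peptide hormones and neuropeptides are made as longer precursors. In the secretory granule, prohormone convertases such as Pcsk1 and Pcsk2 cut them after paired basic residues, Cpe removes the basic residues left at the new ends, and Pam amidates many of the final peptides. Granins are acidic proteins stored with the peptides; they take part in granule formation and are themselves cut into peptides. In the hypothalamus this pathway matures vasopressin, oxytocin and the peptides that govern feeding.

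Scg2 and Chgb supplied most of the reads of these genes, and the stretches before their annotated starts are shown for orientation, as RefSeq gives them on the GRCr8 assembly. Capitals mark the cAMP response element TGACGTCA, the one motif searched in its full form. The Scg2 stretch is chr9:88256867-88257116 (minus strand) and the Chgb stretch chr3:140496462-140496711 (plus strand), each written 5′ to 3′ and ending just before the start.
Scg2: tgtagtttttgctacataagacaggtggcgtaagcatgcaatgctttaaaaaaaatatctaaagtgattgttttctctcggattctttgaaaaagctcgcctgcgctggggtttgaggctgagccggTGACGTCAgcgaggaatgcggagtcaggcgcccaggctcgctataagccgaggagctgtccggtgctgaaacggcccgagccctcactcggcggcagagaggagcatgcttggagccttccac
Chgb: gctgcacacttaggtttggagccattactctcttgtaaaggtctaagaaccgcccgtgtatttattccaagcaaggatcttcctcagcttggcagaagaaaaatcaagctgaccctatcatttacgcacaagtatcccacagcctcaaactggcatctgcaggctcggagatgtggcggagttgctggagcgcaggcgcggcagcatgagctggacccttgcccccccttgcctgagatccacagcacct
The element began 123 bases before the start of Scg2. It reads alike on both strands and was found in 1 of the 8 promoters of these genes that matched the RefSeq table, and in 1.59% of 33469 rat promoters of 250 bases. Its core TGACG, searched on both strands and contained in the full element, was in 6 of the 8 promoters (Scg2, Scg3, Scg5, Pcsk2, Pam and Cpe) and in 18.2% of all. A match is a description of letters, and the counts below did not measure binding. The matched promoters include that of Pcsk1n. Those of Pcsk1 and Chga were not used here. All other coordinates below are on Rnor_6.0, as deposited.

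The libraries held 1417531 to 1957726 reads at sites. Zero reads were found at 14788 sites in control library 1, at 10659 in obesity library 1, and at 4062 to 6622 in each remaining library. Of 10 hypothalamic marker genes 9 were measured (all but Nr5a1), with a summed level of 1067 to 1505 CPM (reads scaled to the library total) in control and 861.7 to 1113 in obesity. Most of this sum was Avp, at a mean of 847.9 CPM. Of the 9 markers 2 were higher and 2 lower in obesity at an unadjusted p under 0.05 (edgeR), against 5.11% of all genes in both directions. Of 7 anterior pituitary markers 3 were measured, with summed levels of 17.88 to 55.91 CPM in control and 6.126 to 126.7 in obesity. Obesity library 2 held 87 of the 88 reads of growth hormone (Gh1) and 58 of the 91 of Lhb. The only measured choroid plexus marker, Ttr, had 144 of its 147 reads in obesity library 4. Results that rest on obesity library 2 are given with and without it.

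Scg2 and Chgb were far more abundant than the other members. A gene's level is the sum of reads at its sites on its main strand, in CPM of the scaled total of gene reads, and reads of 3′ ends do not grow with transcript length. The members took 0.808% to 1.01% of all gene reads. Scg2, the precursor of secretoneurin, made 57.7% of their summed level, and Chgb, chromogranin B, made 29.7%. Chga, chromogranin A, made 4.4%, Scg5, a chaperone of the convertase Pcsk2, 2.46%, Pam 2.26%, Cpe 2.02%, Pcsk2 0.994% and Scg3, a granin that binds Chga, 0.466%. Scg2 exceeded Chgb and Chgb exceeded Chga in 8 of 8 libraries. Chga was above Scg5 in 7 libraries, Scg5 above Pam in 5 and Pam above Cpe in 6, so Scg5, Pam and Cpe did not keep a fixed order. Cpe was above Pcsk2 and Pcsk2 above Scg3 in all 8. Between the highest and the lowest library, levels differed 1.4-fold for Pcsk2 and 3.97-fold for Scg3, with the other 6 genes between.

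The first question was whether these genes differed between diet-induced obesity and control at the level of the whole gene. None was called: 0 of 8 passed an adjusted p of 0.1 (edgeR quasi-likelihood test over 12255 genes), where 0% of all genes passed. At an unadjusted p under 0.05 there were 0 of 8 members, against 5.11% of all genes. By the DESeq2 Wald test 0 of 8 members passed either threshold, against 0.0327% of all genes at the adjusted and 5.89% at the unadjusted one. The groups overlapped for every member, while they did not overlap for 3.45% of all genes. The median log2 fold change of the 8 genes, obesity over control, was 0.06, against 0.00 over all genes, with 5 of 8 above 0. In such bulk tissue fewer cells of a type and less RNA per cell cannot be told apart.

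Among the processing enzymes, Pcsk2, the convertase that cuts many neuropeptide precursors, had levels of 83.5, 81.7, 104.8 and 80.6 CPM in the control rats, listed by library number, and 110.4, 108, 79.1 and 100.1 CPM in the obesity rats. The control values of libraries 1, 2 and 4 lay close together, and the libraries numbered 3 stood opposite to the other pairs. The control mean was 87.7 ± 11.5 CPM and the obesity mean 99.4 ± 14.3 CPM (SD, n = 4). The log2 fold change was 0.18 (SE 0.23, 95% interval -0.30 to 0.66, adjusted p = 0.979).

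Cpe, the carboxypeptidase that trims basic residues after the convertases, measured 209.5, 173.3, 134.9 and 177.9 CPM in the control libraries, in the order of their numbers. It measured 252.4, 194, 181.5 and 194 CPM in the obesity libraries. Obesity was the higher of the same-numbered libraries in 4 of 4 cases, yet the groups overlapped. With means of 173.9 ± 30.6 and 205.5 ± 31.8 CPM (SD, n = 4), the log2 fold change was 0.24 (SE 0.21, 95% interval -0.20 to 0.68, adjusted p = 0.954).

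Pam, which amidates peptides such as vasopressin and oxytocin, had 124.6, 190.7, 256.8 and 282.1 CPM in control and 136, 198.9, 210.8 and 298.8 CPM in obesity. Both groups had their lowest value in library 1 and their highest in library 4. The means were 213.5 ± 70.7 and 211.1 ± 67.1 CPM (SD, n = 4), with a log2 fold change of -0.02 (SE 0.27, 95% interval -0.59 to 0.56, adjusted p = 0.997).

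Scg5 is the small secretory protein that holds Pcsk2 until it is activated. Its control levels were 189.7, 292.5, 329.9 and 224.3 CPM, and its obesity levels 125.5, 302, 222.5 and 169.5 CPM. Libraries 1 were lowest in both groups, and obesity was the lower in 3 of 4 same-numbered pairs. The means were 259.1 ± 63.7 and 204.9 ± 76 CPM (SD, n = 4). The log2 fold change was -0.34 (SE 0.26, 95% interval -0.89 to 0.22, adjusted p = 0.942).

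Scg2, the first of the granins, was at 6790, 4734, 4508 and 5014 CPM in control and at 7423, 4301, 6070 and 4573 CPM in obesity. Its highest value in each group was in library 1. The means were 5261 ± 1040 and 5592 ± 1448 CPM (SD, n = 4), for a log2 fold change of 0.09 (SE 0.21, 95% interval -0.35 to 0.53, adjusted p = 0.99).

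Chgb, a major granule matrix protein, had 2071, 3917, 2272 and 2850 CPM in control and 2043, 4101, 2102 and 3048 CPM in obesity. The values of same-numbered libraries lay side by side, highest in libraries 2 and lowest in libraries 1. The means were 2777 ± 828.3 and 2824 ± 968.1 CPM (SD, n = 4), for a log2 fold change of 0.02 (SE 0.25, 95% interval -0.50 to 0.55, adjusted p = 0.997).

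Chga is also a granule matrix protein and the precursor of vasostatin and other peptides. In control it was at 359.5, 542.1, 273.9 and 352 CPM, and in obesity at 378.6, 642.2, 409.3 and 357.4 CPM. It was highest in library 2 of both groups, and higher in obesity in 4 of 4 same-numbered pairs, by little in libraries 1 and 4. The means were 381.9 ± 113.6 and 446.9 ± 131.9 CPM (SD, n = 4), for a log2 fold change of 0.23 (SE 0.24, 95% interval -0.28 to 0.73, adjusted p = 0.968). Without obesity library 2 it was -0.00 for Chga and -0.21 for Chgb. Obesity library 2, with Chga at 642.2 and Chgb at 4101 CPM, had 87 reads of Gh1 and 58 of Lhb. Control library 2, with Chga at 542.1 and Chgb at 3917 CPM, had 0 reads of Gh1 and 0 of Lhb. The remaining measured pituitary marker, Cga, went the other way, with 34 reads in control library 2 and 11 in obesity library 2. The part of pituitary RNA in these values was not tested.

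Scg3, which links Chga to the granule membrane, was the rarest member, with 29 to 117 reads in a library. The most 5′ of its 3 sites held 77.5% of the gene's reads. Levels of the gene were 38.9, 78.3, 56.9 and 40.3 CPM in control and 22.5, 72.3, 21.7 and 19.7 CPM in obesity. Obesity libraries 1, 3 and 4 lay below every control library, and obesity library 2 lay above 3 of the 4 control values. Obesity was lower in 4 of 4 same-numbered pairs. The means were 53.6 ± 18.4 and 34.1 ± 25.5 CPM (SD, n = 4), for a log2 fold change of -0.67 (SE 0.42, 95% interval -1.54 to 0.21, adjusted p = 0.926). Without obesity library 2 the log2 fold change was -1.33 (adjusted p = 0.308), and that of Scg5 was -0.59 (adjusted p = 0.491). In that fit these were the 2 of 8 members with an unadjusted p under 0.05, and the share of all genes rose from 5.11% to 9.72%.

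**Figure D1:**
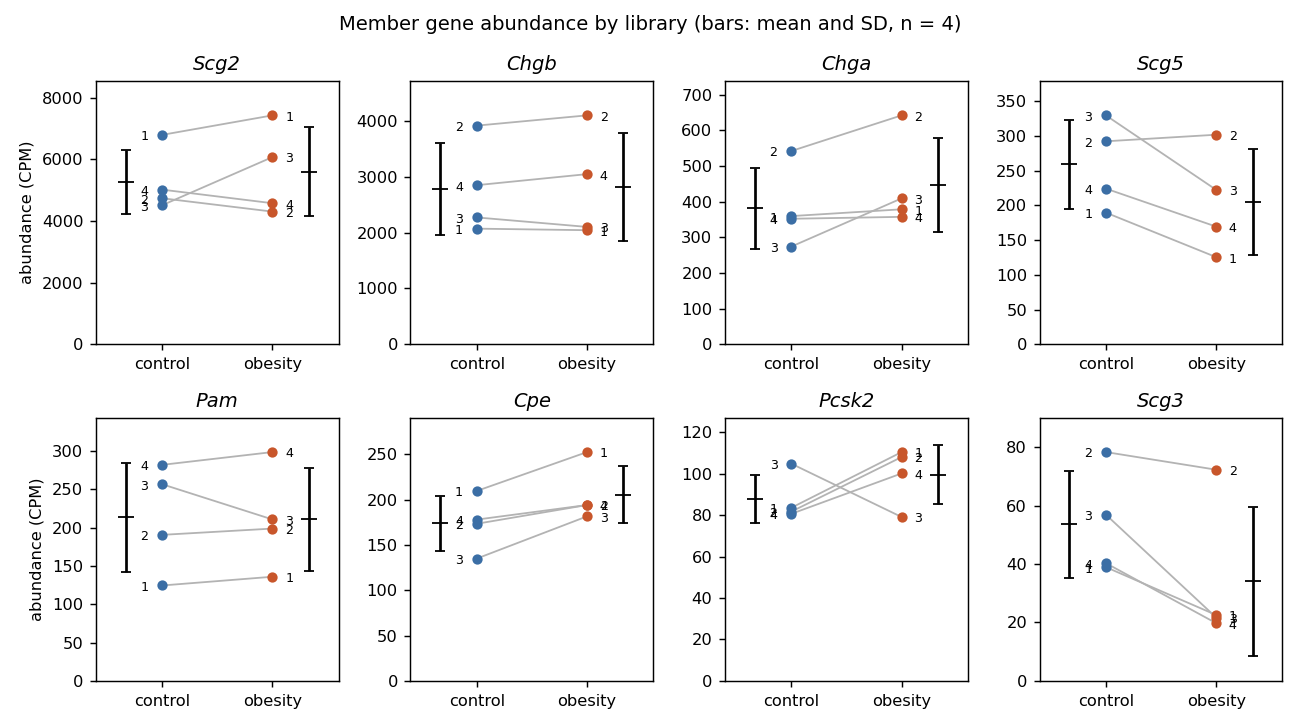
Level of each gene in CPM in the 4 control (blue) and 4 obesity (orange) libraries; numbers are the library numbers of the labels, grey lines join equal numbers, and black bars give the mean and SD. The groups overlap for all 8 genes, Chgb spans 2043 to 4101 CPM with equal numbers side by side, and Scg3 is lower in obesity in 4 of 4 joined pairs.

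With the library number as a block in the fit, the intervals narrowed and still no member was called. The block raised the count at an unadjusted p under 0.05 from 0 to 2 of 8 members, against 10.9% of all genes, and the adjusted count stayed at 0 of 8, against 0.277% of all genes. The 2 members were Scg3 and Scg5, both lower in obesity. Scg3 had a log2 fold change of -0.80 in the blocked fit (SE 0.29, 95% interval -1.39 to -0.21, adjusted p = 0.279). Scg5 had -0.38 in that fit (SE 0.16, 95% interval -0.70 to -0.05, adjusted p = 0.376). Without both libraries numbered 2, the blocked fit called 1 member, Scg5, at -0.52 (adjusted p = 0.083), and Scg3 was at -1.07 (adjusted p = 0.11). That fit was chosen after the data were seen, and it called 562 of 12255 genes (4.59%), against 34 with all libraries. The blocked interval of Chgb was -0.24 to 0.25, that of Scg2 -0.18 to 0.33 and that of Pam -0.33 to 0.32.

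**Figure D2:**
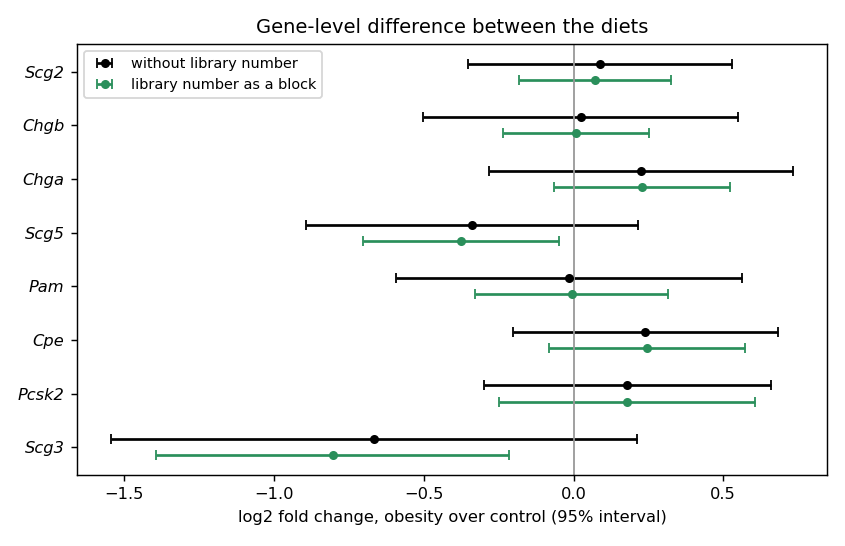
Log2 fold change of each gene, obesity over control, with its 95% interval from edgeR, without the library number (black) and with it as a block (green). All 8 black intervals cross 0, and the green intervals of Scg5 and Scg3 lie below 0 while both adjusted p-values (0.376 and 0.279) miss the threshold.

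Most members differed in level between the library numbers of the labels. This pattern was chosen for a test after its values were seen. In a fit with diet and number, 6 of 8 members differed between the numbers at an adjusted p under 0.1 (edgeR), against 10.7% of all genes. They were Chgb (adjusted p = 0.000668), Pam (0.00752), Chga (0.0203), Scg5 (0.0205), Scg3 (0.0403) and Scg2 (0.0496). Cpe (0.408) and Pcsk2 (0.995) did not pass. The members are deeply read, and the share of genes that passed rose with depth. It was 7.55% for genes of under 1000 reads, 25.6% for 1000 to under 10000 reads and 43.5% for 10000 or more, where the members counted 1 of 1, 3 of 5 and 2 of 2. Left out in turn, single libraries took the member count to between 1 (without obesity library 4) and 6, with 4 without obesity library 2. The share of all genes was 5.16% without obesity library 4, 9.56% without obesity library 2, and at most 12.6% in these fits. Leaving out both libraries of a number gave 3, 4, 6 and 4 members for numbers 1 to 4, against 6.88%, 10.2%, 9.33% and 6.85% of all genes. The large number of sites at 0 in both libraries numbered 1 stands beside this pattern, and its part in it was not tested.

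The numbers did not move the members together. Chgb and Chga were highest in libraries 2, Pam in libraries 4 and Scg2 in libraries 1. The most abundant site of Pam was instead lowest in libraries 4, at 40.19 CPM in control and 35.88 CPM in obesity. That site did not pass for number (adjusted p = 0.346, edgeR). Over the 8 libraries, as a description, the log2 levels of Scg2 and Chgb had a Pearson correlation of -0.76, those of Chga and Chgb 0.73, those of Scg3 and Scg5 0.81 and those of Cpe and Scg5 -0.83. These points share their library totals.

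The genes differed in where along the locus their 3′ ends were read. Sites of Scg2, Chgb and Chga lay close together. Scg2 on chromosome 9 (minus strand) had 14 sites, and 1 of them at 85238957 to 85239093 took 96.7% of its reads, with 95.28% to 97.71% in single libraries. It had 9312, 6825, 5374 and 6339 reads in control and 9568, 5048, 10129 and 6463 in obesity. Chga on chromosome 6 (plus strand) had 6 sites within 1170 bases. The second of them (126442274 to 126442340) took 69.31% of the reads and the last, 1071 bases on, 18.22%. The former took 66.3% ± 4.68 with chow and 70.9% ± 5.86 with the high fat diet (SD, n = 4).

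Chgb on chromosome 3 (plus strand) had 22 sites, and those within 3 kb of the main one held 99.53% of its reads. The main site (125439074 to 125439320) took 44.26%, with 34.44% to 52.69% in single libraries, and a site centred at 125439853 took 20.81%. The main site had 1539, 2765, 1172 and 1390 reads in control and 1310, 2182, 1891 and 1542 in obesity, with a log2 fold change of -0.06 (SE 0.30). Scg5 on chromosome 3 (minus strand) had 5 sites, and the most 3′ one (105235060 to 105235070) took 92.23%.

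Cpe, Pcsk2, Pam and Scg3 were read at sites far apart. Cpe on chromosome 16 (plus strand) had 22 sites over 108 kb. Its most abundant site (26941591 to 26941736) took 23.81% of the reads and lay 73134 bases before the last, which took 12.56%. The last site of Cpe, at 27014796, held a share of 18.2% ± 4.75 in control against 8.03% ± 5.38 in obesity (SD, n = 4). Its log2 fold change was -0.99 (unadjusted p = 0.0815, edgeR) on 267 reads in all. The groups overlapped in its level, and it was not called at an adjusted p of 0.1. The last site of Chgb, at 125441595, also held a lower share in obesity, at 2.72% ± 0.56 against 4.58% ± 1.39 in control (SD, n = 4). Mean shares of the last sites of Scg2, Scg3 and Scg5 were higher in obesity. With the block the unadjusted p was 0.00796 for the Cpe site and 0.00719 for the Chgb site (edgeR), and neither was called. Both sites were named after their values were seen. Pcsk2 on chromosome 3 (plus strand) had 14 sites over 275 kb, and 1 more with 118 reads on the other strand, which its gene sum left out. The site at 137680077 to 137680102 took 22.47% and lay 243274 bases before the last. Pam on chromosome 9 (plus strand) had 14 sites over 145 kb, and the most 3′ one (111177575 to 111177595) took 31.18%, with 14.58% to 58.52% in single libraries. Scg3 on chromosome 8 (minus strand) had 3 sites, and the most 5′ one (82627880 to 82627906), 45573 bases before the last, took 77.5%. Its reads were 49, 93, 59 and 36 in control and 19, 62, 31 and 23 in obesity. The log2 fold change was -0.85 (SE 0.49) at this site. It was -0.38 (SE 0.86) at the middle site, on 42 reads in all, and -0.15 (SE 1.12) at the last, on 66. For such genes the level is a sum over separate positions, and reads primed inside A-rich RNA cannot be told from true 3′ ends here. Sites were not classed as exonic or intronic, since a genome of this build was not used here. Within 25 kb of the sites of Cpe, Pcsk2 and Scg3, 1 further site each on the same strand, with 32, 57 and 42 reads, carried another gene's symbol or none, and the other 5 genes had 0 such sites.

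**Figure D3:**
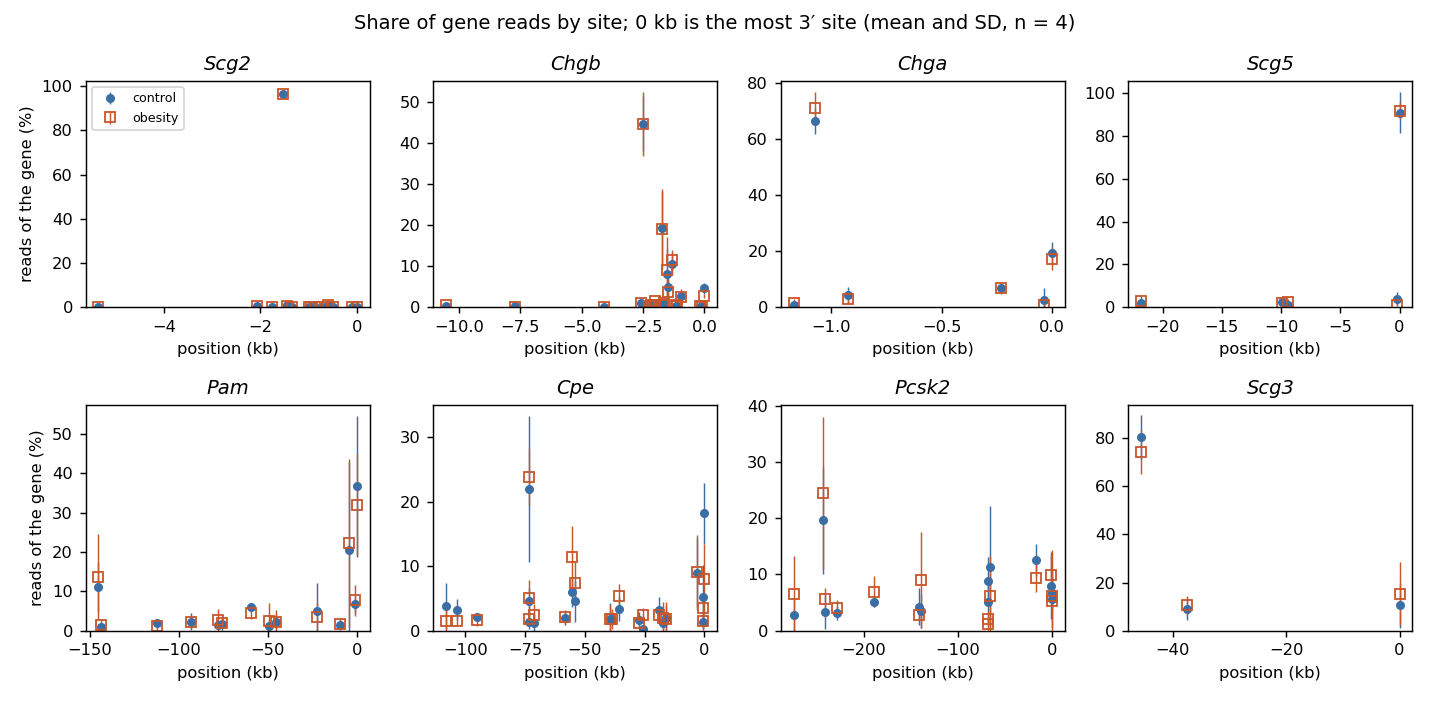
Share of a gene's reads at each of its sites (vertical axis, percent, mean and SD over 4 libraries) against the distance in kb from its most 3′ site (horizontal axis, 5′ to the left), for control (blue circles) and obesity (orange squares). Scg2 and Scg5 end at 1 site each (96.7% and 92.23% of reads), Chgb is split over a cluster within 3 kb, and Cpe, Pcsk2 and Pam are spread over 108 to 275 kb.

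Site by site, no member site was called. At an adjusted p of 0.1 (edgeR over 73922 sites) there were 0 of 101 member sites, against 0.00135% of all sites, and 0 with the block, against 0.00541%. At an unadjusted p under 0.05 there were 5 of 101 (4.95%), 3 higher and 2 lower in obesity, against 3.14% of all sites. By the DESeq2 Wald test there were 0 called, against 0.0136% of all sites, and 7 at an unadjusted p under 0.05, against 3.86%. Without obesity library 2 edgeR had 8 under 0.05, against 5.52% of all sites. With the block there were 9 of 101 (8.91%), 4 higher and 5 lower, against 6.09% of all sites, and the lowest adjusted p was 0.572. The groups did not overlap at 4 member sites (3.96%), 3 higher and 1 lower, against 3.11% of all. Most member sites were thinly read, since 61 of 101 had under 100 reads over the 8 libraries. Among the 9 sites with 1000 or more reads, the largest log2 fold change was 0.71 in size.

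Of these sites, 2 had both an unadjusted p under 0.05 and groups that did not overlap. A Cpe site (26959623 to 26959635), the ninth of the gene from its 5′ end, had 9, 15, 14 and 16 reads in control and 30, 21, 58 and 26 in obesity. Every obesity library exceeded every control library, with a log2 fold change of 1.13 (SE 0.48, unadjusted p = 0.0316, adjusted p = 1). A Pcsk2 site (137854896 to 137854940) had 18, 8, 8 and 8 reads in control and 3, 5, 3 and 1 in obesity. It was lower in every obesity library, with a log2 fold change of -1.82 (SE 0.80, unadjusted p = 0.0382, adjusted p = 1). The other 3 sites under 0.05 belonged to Cpe, Chgb and Scg5, with 30 to 65 reads each and overlapping groups.

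A shift between a gene's sites was tested apart from its total. By the Simes p-value of edgeR's diffSpliceDGE, 0 of 8 members passed an adjusted p of 0.1, against 0% of 7996 genes with 2 or more sites. At an unadjusted p under 0.05 there were 0 of 8, against 1.39% of those genes. The smallest member value was that of Cpe (unadjusted p = 0.341), and with the block it was also that of Cpe (0.0629).

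Single sites of the same gene followed the library number in different ways. In the fit with diet and number, again chosen after its values were seen, 21 of 101 member sites (20.8%) differed between the numbers at an adjusted p under 0.1 (edgeR), against 8.66% of all sites. There were 11 of Chgb, 3 each of Pam and Scg2, 2 of Cpe, and 1 each of Pcsk2 and Scg5. Chga and Scg3 had 0 such sites, though both passed as genes. By depth, 6 of 61 member sites of under 100 reads passed, against 5.19% of all such sites. At 100 to under 1000 reads it was 9 of 31, against 17%, and at 1000 or more 6 of 9, against 33.3%. Over the leave-outs the count ranged from 14 (without obesity library 4) to 23 (without both libraries numbered 3), where 6.41% and 8.1% of all sites passed.

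The Chgb site at 125439019 had 1, 153, 23 and 12 reads in the control rats, in the order of their numbers, and 0, 140, 15 and 19 in the obesity rats (adjusted p for number = 7.1e-08, edgeR). The libraries numbered 2 held 293 of its 363 reads (80.7%). A Chgb site at 125439343, further 3′, had 27, 1, 1 and 0 reads and then 21, 1, 1 and 0 (adjusted p = 0.0104), so its reads were in the libraries numbered 1. Further along, the site at 125439853 had 202, 1647, 651 and 693 reads and then 163, 1500, 727 and 902 (adjusted p = 1.25e-07). At 125440061 the counts were 163, 187, 188 and 635, and then 175, 139, 214 and 932 (adjusted p = 2.35e-06), with libraries 4 the highest in both groups. These 4 Chgb sites thus had 3 different numbers as their highest.

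A Pam site at 111173286, with 26.55% of the gene's reads, had 1, 33, 57 and 194 reads in control and 5, 26, 88 and 226 in obesity (adjusted p for number = 5.46e-08, edgeR). Libraries 4 held most of its reads in both diets. Scg2 had a site at 85238903 with 9, 116, 35 and 39 reads and then 15, 95, 40 and 32 (adjusted p = 0.00054), highest in libraries 2. Another at 85238052 had 105, 21, 36 and 136 and then 117, 18, 42 and 129 (adjusted p = 0.000238), low in libraries 2 and 3. The main site of Scg2, with 96.7% of its reads, did not pass (adjusted p = 0.415), though the gene did (adjusted p = 0.0496). Over the 101 sites, deviations from the group means correlated at 0.327 to 0.56 between same-numbered libraries and at -0.313 to 0.166 between other control and obesity libraries. Deviations sum to 0 within a group, so positive same-numbered values by themselves push the other values down.

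**Figure D4:**
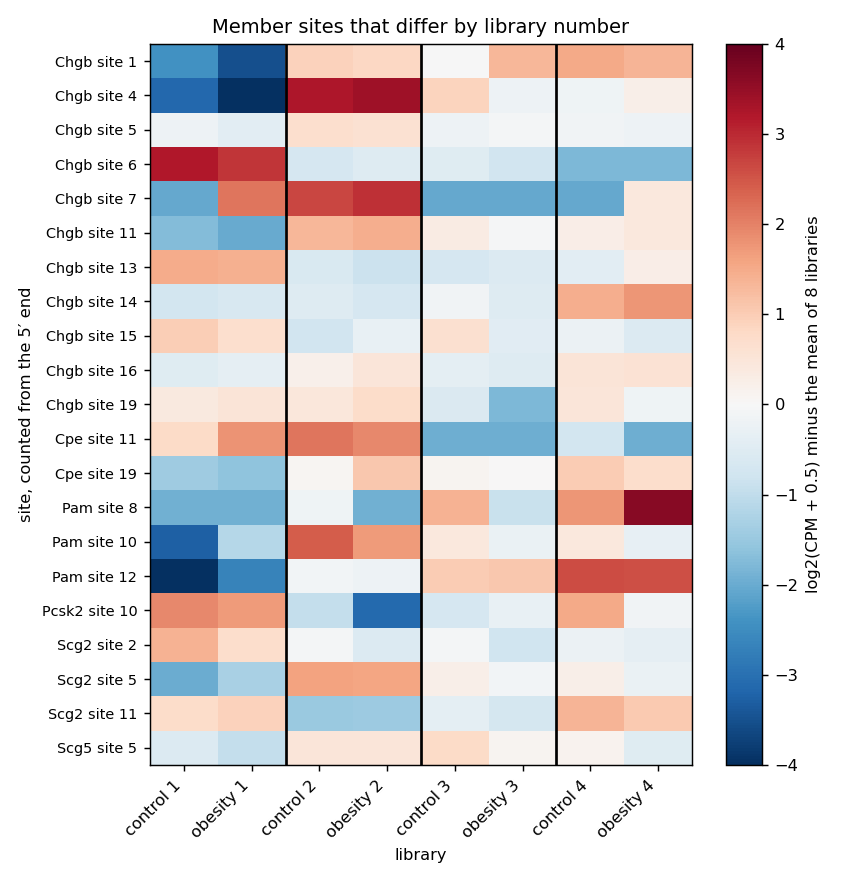
The 21 member sites that differ by library number (rows, numbered from the 5′ end of the gene) in the 8 libraries, ordered by number (columns); colour is log2(CPM + 0.5) minus the mean of the row, red for higher and blue for lower. Control and obesity libraries of 1 number mostly share a colour, and the Chgb sites 4 and 6 run opposite to each other in libraries 1 and 2.

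Related genes of the pathway were described by lists. Of 16 symbols listed for other processing enzymes, which cut, trim or sulphate secreted proteins, 11 were measured. At an unadjusted p under 0.05, 0 rose and 0 fell, against 5.11% of all genes in both directions. The median log2 fold change of the 11 enzymes was 0.05. With the block 1 of the 11 was under 0.05, against 10.9% of all genes. It was Nrdc, an endopeptidase named after its values were seen (adjusted p = 0.335 in the blocked edgeR fit). Its mean was 489.8 CPM in control and 382.6 in obesity.

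Of 23 dense-core vesicle genes, which build and release the granule, 22 were measured, and 1 was higher and 1 lower at an unadjusted p under 0.05, against 5.11% of all genes in both directions. With the block 2 were higher and 2 lower, against 10.9% of all genes. The median log2 fold change was 0.09, with 12 of 22 above 0, and 0 were called. Cadps, which primes granules for release, had 339, 410, 299 and 425 reads in control and 527, 443, 637 and 706 in obesity. Its level averaged 270.1 ± 38.6 and 402.3 ± 54.3 CPM (SD, n = 4), and the groups did not overlap. Its log2 fold change was 0.58 (SE 0.19, unadjusted p = 0.00817, adjusted p = 0.92), and with the block the adjusted p was 0.104. Rab3a, a small GTPase of vesicle docking, averaged 163.3 ± 12.3 CPM with chow and 114.7 ± 30.4 CPM with the high fat diet (SD, n = 4). Its log2 fold change was -0.51 (SE 0.22, unadjusted p = 0.0358, adjusted p = 0.92).

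Of 29 prohormone genes, the substrates of the pathway, 21 were measured, and 2 were higher and 3 lower at an unadjusted p under 0.05, against 5.11% of all genes in both directions, with 0 called. With the block 3 were higher and 4 lower, against 10.9% of all genes. Their median log2 fold change was -0.11, with 9 of 21 above 0. The lower genes were Avp, the vasopressin precursor, at a log2 fold change of -0.44 (SE 0.19), Oxt, the oxytocin precursor, at -0.74 (SE 0.30), and Sst, the somatostatin precursor, at -1.36 (SE 0.54). The higher genes were Npvf, the precursor of an RFamide peptide, at 1.03 (SE 0.39), and Crh, the precursor of corticotropin-releasing hormone, at 1.72 (SE 0.74) on 71 reads in all. Their adjusted p was 0.92 in each case (edgeR). Beside these, the summed level of 7 measured neuronal markers was 2866 to 3529 CPM in control and 2784 to 3639 in obesity, and that of 9 oligodendrocyte markers 17530 to 23060 and 13530 to 21280 CPM. The 7 astrocyte markers summed to 1902 to 2660 CPM in control and 1501 to 2184 in obesity, and 4 of 6 microglial markers to 75.7 to 131.7 and 35.3 to 107.2 CPM. At an unadjusted p under 0.05, 0 neuronal, oligodendrocyte, astrocyte or microglial markers were higher, and 1, 2, 1 and 1 of them were lower. Over all 12255 genes 311 were higher and 315 lower at that threshold, 5.11% in both directions. Log2 fold changes were above 0 for 3 of 7 neuronal, 0 of 9 oligodendrocyte, 2 of 7 astrocyte and 2 of 4 microglial markers. Their medians were -0.15, -0.22, -0.23 and 0.08, against 0.00 over all genes. Most of the oligodendrocyte sum was Mbp, at a mean of 14200 CPM. The part of tissue makeup in the member values was not tested.

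**Figure D5:**
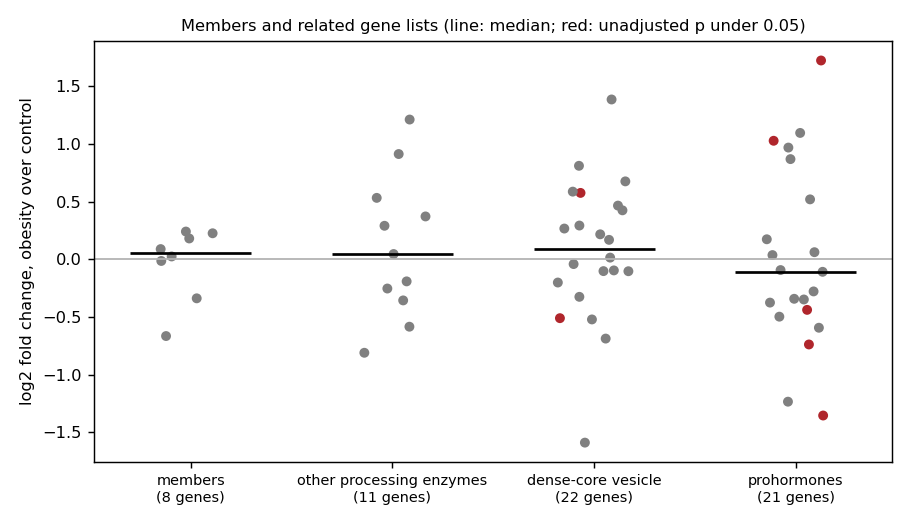
Log2 fold change, obesity over control, of each measured gene (points, spread sideways only for legibility) of the members and of 3 related lists; lines are medians and red marks an unadjusted p under 0.05. The 8 members lie between -0.67 and 0.24 with none in red, and the list medians are 0.05, 0.09 and -0.11.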

How the data were processed

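The deposited table gives raw counts of reads at each polyadenylation site, not normalized by the authors, for 8 WTTS-seq libraries. The labels describe RNA fragmentation, poly(A)+ enrichment, first-strand cDNA synthesis, size selection and PCR. The submitters' processing notes name Bowtie2 2.2.3 and the Rnor_6.0 assembly. How sites were clustered, filtered and assigned to genes is not given in the sources used here. The paper linked to these libraries describes another exposure, so the groups are those of the labels and its methods were not used. The lowest site total was 30 reads, so rarer sites were absent before testing. A line with no site held 1 library's column total and was left out, and 273 sites with a mark in place of a symbol were treated as having no gene; 89.2% of sites had one. Reads carry no molecular identifiers, so precision measures counting and library spread only.

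Counts were summed per gene on the strand with most of its reads and tested with edgeR 4.0.16 (robust quasi-likelihood, TMM) in R 4.3.3. Values of p were adjusted by Benjamini and Hochberg's method over all genes or sites, with a threshold of 0.1. SE and intervals come from the same fit. Site usage was tested with diffSpliceDGE. The alternatives were the library number as a block, DESeq2 size factors, edgeR's filterByExpr, the DESeq2 1.42.0 Wald test, both-strand sums and leaving out libraries. Where nothing says that libraries come from separate preparations, p-values measure only the spread between these samples, which may be technical. Over 8301 genes, each library's log2 CPM less its group mean was correlated between control and obesity libraries. Same-numbered libraries had values of 0.276 to 0.405 and the others -0.229 to 0.0957. All same-numbered values thus lay above all others, although no label explains the numbering. Part of the gap is arithmetic, since values less their group mean sum to 0 within a group. Values are from the fit without a block unless the block is named, so their SE and intervals include the spread between numbers. The scripts were tested on simulated data. The members and lists were chosen with earlier results of these data known. All members were named, with each one's most abundant site, sites with an unadjusted p under 0.05 and no overlap, and genes of the enzyme, vesicle and prohormone lists that met either condition. Cell type marker lists were given as sums and counts. Gh1, Lhb, Cga and Ttr were named from them, and the library-number sites from the members, after their values were seen. Promoter sequences are from RefSeq (GRCr8).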

Additional observations from a re-analysis of the deposited data

Results flagged for a closer look

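Within each group of 4 libraries, the highest or lowest value was compared with the range of the group by Dixon's criterion, for each member's level, the share of its main site and the members' share of all gene reads. There were 34 such checks, of which chance flags about 1 in 20, or 1.7, and 3 were marked. Pcsk2 in control library 3 stood at 104.8 CPM, against 80.59 to 83.52 in the other controls. Scg3 in obesity library 2 stood at 72.26 CPM, against 19.74 to 22.54 in the other obesity libraries. The main site of Scg5 held 76.49% of the gene's reads in control library 1, against 94.51% to 96.61% in the other controls. No cause of these values was tested.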

How the results depend on the processing

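No member gene, member site or member's site usage was called under another scaling, filter, test or strand rule, with the replicate block on all libraries, or without any single library. With the replicate block, 2 member genes and 9 member sites had an unadjusted p under 0.05, against 0 and 5 without it. Of all genes 10.9% were under 0.05 with the block and 5.11% without it, and of all sites 6.09% and 3.14%. The block without both libraries of a number, an alternative chosen after seeing the data, gave 1, 2, 0 and 1 genes, and 4, 9, 8 and 9 sites, without numbers 1, 2, 3 and 4. In these fits 8.26%, 15.1%, 6.78% and 6.71% of all genes were under 0.05, and 5.05%, 7.46%, 4.27% and 4.4% of all sites. Such a block called 1 member gene, without both libraries numbered 2 (4.59% of all genes): Scg5, at -0.522. Leaving out single libraries gave 0 to 2 genes (2 without obesity library 2) and 1 to 8 sites at an unadjusted p under 0.05. The 1 came without control library 1 (3.04% of all sites) and the 8 without obesity library 2, where all genes under 0.05 rose to 9.72% and all sites to 5.52%. With filterByExpr 1 of the 44 member sites that the filter kept was under 0.05, against 4.59% of all sites kept. Log2 fold changes near 0 turned sign. Leaving out single libraries they ranged from -0.001 to 0.443 for Chga, -0.212 to 0.236 for Chgb, -0.214 to 0.148 for Pam and -0.079 to 0.235 for Scg2. Pam was at 0.001 with DESeq2 size factors and by the DESeq2 Wald test. In the block without both libraries of a number, Pam was at 0.089 and Scg2 at -0.047 without number 3, and Chgb at -0.011 without number 2 and -0.004 without number 4. The causes were not tested. Pcsk2 and Cpe stayed above 0, and Scg5 and Scg3 below 0, in all leave-one-out fits. Depth limits the precision most for Scg3, at 29 to 117 reads in a library, and for the 61 of 101 member sites with under 100 reads in all.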

Other observations

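Among 1809 other genes with a mean of at least 100 CPM, the log2 levels most like the log2 of the members' summed level over the 8 libraries were those of Hecw1 (Pearson r = 0.98), Znhit6 (0.96) and Ddx46 (0.93). Their mean levels were 262.2, 211.3 and 181.3 CPM. The summed level is mostly Scg2 and Chgb and ranged from 7937 to 10490 CPM. All points share their libraries and the choice was made among many genes, so the likeness is a description.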
